A study of Homo sapiens with 4 samples.

Results

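Keratins are the intermediate filament proteins of epithelial cells, and their transcripts were read here from arrays of MDA-MB-468 cells, a triple-negative human breast cancer line, with and without knockdown of its endogenous p53-R273H. A member was any gene whose symbol in the platform annotation is KRT followed by digits and at most one letter, without pseudogenes and keratin-associated proteins, and each gene was represented by its transcript cluster with the highest mean signal. This gave 48 keratins of 18417 genes. RefSeq (GRCh38.p14) lists 55 protein-coding keratin symbols of this form, and the other 7 (KRT17, KRT6A, KRT6B, KRT6C, KRT81, KRT82 and KRT86) have no cluster named for them alone and are not analysed here. All arrays carried RNA of MDA-MB-468 cells transduced with lentivirus, so the cells of both groups were infected. On 2 arrays the lentivirus carried a non-targeting shRNA (NS) and on 2 it carried p53si-1, an shRNA against the p53-R273H transcript. The methods and the results of the paper state different times after transduction, and neither is used here. The data hold 1 cell line and 1 p53 shRNA sequence, so an effect of the sequence and an effect of losing p53-R273H cannot be told apart. The level of the p53 transcript is not analysed here, and how far it was lowered is therefore left out.

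Keratin filaments are built from pairs, each of a type I (acidic) and a type II (basic) chain. Simple epithelium such as the luminal layer of the breast uses KRT8 with KRT18 and KRT19, and KRT7 in ducts. The basal layer of stratified and mammary epithelium uses KRT5 with KRT14, and KRT15 is another basal partner. Cells of the epidermis that leave the basal layer switch to KRT1 and KRT10, while the hair follicle has its own root sheath and hair keratins. Of the 27 type I keratins measured, 26 lie on chromosome 17 and 1, KRT18, lies beside KRT8 on chromosome 12 with the 20 type II keratins. KRT222, a keratin-related gene on chromosome 17, belongs to neither set.

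The promoters of KRT10 and KRT5 are shown because these keratins had the largest differences in opposite directions among those with a sequence in the RefSeq table. Each window runs from 250 bases before to 50 bases after the gene's start in GRCh38.p14, is written 5′ to 3′ on the gene's own strand, and has the motifs found in capitals. KRT10 is at chr17:40822565-40822864 on the minus strand and KRT5 at chr12:52520345-52520644 on the minus strand.
KRT10: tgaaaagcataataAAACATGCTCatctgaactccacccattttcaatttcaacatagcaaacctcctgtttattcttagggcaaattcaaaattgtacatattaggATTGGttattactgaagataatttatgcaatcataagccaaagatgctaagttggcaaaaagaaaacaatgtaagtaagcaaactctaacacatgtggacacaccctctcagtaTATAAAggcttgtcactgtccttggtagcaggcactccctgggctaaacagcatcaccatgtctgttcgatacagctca
KRT5: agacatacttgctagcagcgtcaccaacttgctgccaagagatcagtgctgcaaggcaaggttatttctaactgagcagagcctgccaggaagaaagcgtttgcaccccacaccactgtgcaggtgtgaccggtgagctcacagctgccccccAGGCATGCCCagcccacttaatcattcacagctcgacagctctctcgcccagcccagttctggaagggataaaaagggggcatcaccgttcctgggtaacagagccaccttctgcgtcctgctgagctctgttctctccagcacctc
The capitals in KRT10 mark a p53 decamer (only part of a full p53 site, searched by its consensus), an inverted CCAAT box and a TATA box (TATAAA). The first base of the TATA box lies 29 bases before the start. In KRT5 the capitals mark a p53 decamer alone. Both strands were searched for 6 motifs that were not filtered for overlap with each other. Of 35116 windows of the same length in the table, 11.5% hold TATAAA, 34.6% CCAAT, 45.0% the GC box GGGCGG, 7.7% the AP-1 letters TGANTCA, 1.8% the octamer ATGCAAAT of POU factors and 6.6% the p53 decamer. Windows of 33 of the 48 keratins were in the table. TATAAA stood in those of 20 of these genes, CCAAT in those of 16 and GGGCGG in those of 6. The p53 decamer stood in those of 8, which are KRT2, KRT5, KRT8, KRT10, KRT20, KRT24, KRT25 and KRT76. These are counts of genes, while the shares above are of windows. Of 37 keratin windows, 54.1% held TATAAA, 45.9% CCAAT, 16.2% GGGCGG and 21.6% the p53 decamer, and their difference from all windows was not tested. TGANTCA and ATGCAAAT stood in none of them. A match of letters is a description of the window and not a binding site.

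The authors deposited 1 RMA value per transcript cluster and array, used here as log2 signals. The array medians over 33297 clusters lay between 5.66 and 5.69. RMA makes the distributions of the arrays alike, and precision is limited by there being 4 arrays. The signals of marker genes matched an epithelial line. EPCAM was at a mean log2 signal of 12.03 and CDH1 at 9.53 on the NS arrays, the epidermal growth factor receptor EGFR was at 9.88, and the hormone receptors ESR1 and PGR were at 4.49 and 3.97. ERBB2, the third gene of the triple-negative definition, was at 7.63, above the marker limit given next. Of 24 measured markers of leukocytes, fibroblasts and endothelium, 18 were under 5.59, the highest of the upper quartiles of these 3 lists. The limit was set from the same lists, so most of their markers had to lie under it. The count therefore does not show that such genes are absent. Markers under the limit included PTPRC at 3.09, DCN at 3.26 and PECAM1 at 4.32. The 6 above the limit were CD14 at 9.82 and CD68 at 6.53 among leukocyte markers, COL1A1 at 7.28 and COL1A2 at 5.80 among fibroblast markers, and KDR at 8.54 and CLDN5 at 6.29 among endothelial markers, so CD14 was brighter than CDH1. The summed linear signal of the fibroblast list was 344 to 355 on the NS arrays and 298 to 324 on the p53si-1 arrays, that of the endothelial list 501 to 607 and 654 to 748, and that of the leukocyte list 1052 to 1209 and 1045 to 1135. The leukocyte sum rests mostly on CD14, at means of 9.82 with NS and 9.75 with p53si-1, the endothelial sum on KDR, at 8.54 and 9.04, and FAP of the fibroblast list was at 5.03 and 4.27. Their part in the keratin results was not tested.

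On the NS arrays a small group of keratins was bright and most were dim. A signal was called bright above 8.24, the upper quartile of all genes on these arrays, and dim under 5.59, the marker level given above. Each cluster has its own probes, so the order of signals is not an order of RNA amounts. By these limits 7 keratins were bright, 7 lay between and 34 were dim. The bright ones were KRT8, KRT19, KRT18, KRT7, KRT23, KRT5 and KRT15, which are keratins of simple epithelium together with the basal keratins KRT5 and KRT15. KRT80, KRT16, KRT14, KRT10, KRT33A, KRT33B and KRT71 lay between. All 4 measured type I keratins of the inner root sheath were dim, with mean NS signals up to 4.31, as were all 3 measured type II hair keratins, up to 5.43.

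**Figure D1:**
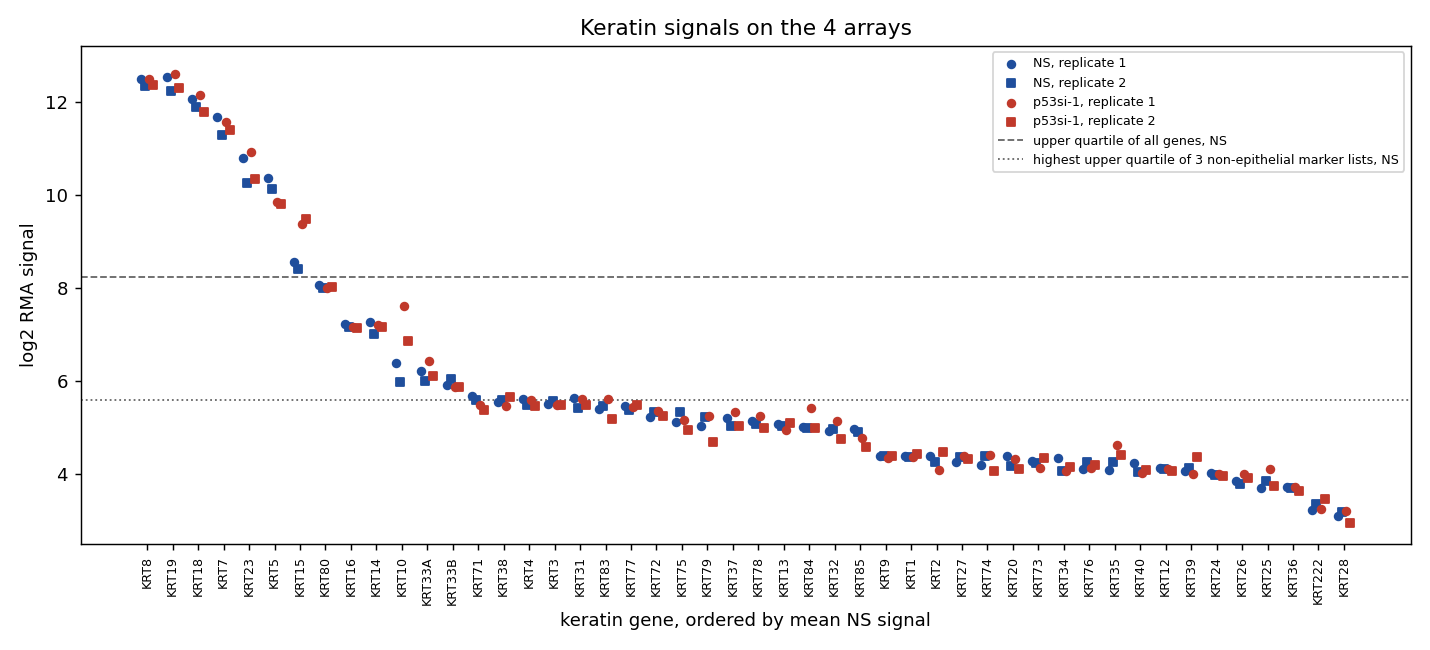
Log2 RMA signal of each of the 48 keratins on each array, in the order of their mean NS signal, with circles for replicate 1 and squares for replicate 2. The dashed line (8.24) is the upper quartile of all genes and the dotted line (5.59) the highest upper quartile of 3 lists of non-epithelial markers, and 34 keratins have a mean NS signal below the dotted line.

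The paired simple keratins KRT8 and KRT18 had nearly equal means in both groups. KRT8, the type II chain, had log2 signals of 12.49 and 12.34 with NS and 12.49 and 12.37 with p53si-1. The groups overlapped, and the difference (p53si-1 minus NS) was 0.014 with a 95% interval of -0.22 to 0.25. KRT18, its type I partner, has 2 clusters named for it alone. The dimmer (7955637), whose number lies among those of chromosome 12 genes, was at 11.19 and 11.10 with NS and at 11.25 and 11.04 with p53si-1. The brighter (8154725), which the rule takes for KRT18 in all counts and plots, was at 12.05 and 11.88 with NS and at 12.14 and 11.78 with p53si-1, with an interval of the difference of -0.34 to 0.33. On both clusters the p53si-1 arrays were the highest and the lowest of the 4. All 10 named clusters nearest in number to the brighter belong to genes of chromosome 9, and signal of the gene and of a KRT18-like locus there cannot be told apart on it. The clusters of the other 47 keratins lie in number among those of their own chromosome. In RNA of whole cultures, fewer cells with a keratin and less of its RNA per cell cannot be told apart, here and for every gene that follows.

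KRT19 and KRT7, the other bright keratins of simple and ductal epithelium, also overlapped. KRT19, the smallest type I keratin, was at 12.52 and 12.22 with NS and at 12.59 and 12.30 with p53si-1, with an interval of -0.27 to 0.41. KRT7 was at 11.67 and 11.28 with NS and at 11.57 and 11.38 with p53si-1, with an interval of -0.35 to 0.36. For both genes the arrays of one group differed by more than the group means did. KRT23, a type I keratin of simple epithelia, was at 10.79 and 10.25 with NS and at 10.91 and 10.35 with p53si-1. Its interval of -0.46 to 0.68 is the widest of these bright simple keratins and includes changes of over 1.5-fold. KRT20, a partner of KRT8 in intestinal epithelium, was dim, with 4.40 and 4.18 with NS and 4.33 and 4.11 with p53si-1.

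Among basal keratins, KRT15 rose while its partner KRT5 had a lower mean. KRT15 (transcript cluster 8015337), a type I keratin of basal cells and of the hair follicle bulge, was at 8.56 and 8.40 with NS and at 9.38 and 9.49 with p53si-1. Both p53si-1 arrays lay above both NS arrays. The means were 8.48 ± 0.11 and 9.43 ± 0.08 (SD, n = 2 arrays each), a 1.93-fold increase with a log2 difference of 0.95, a standard error of 0.10 and an adjusted p of 0.0484 from limma. KRT15 was the only keratin to pass an adjusted p of 0.05, and it did not pass when any 1 array was left out, with an adjusted p of 0.0652 without NS replicate 1, 0.0932 without NS replicate 2, 0.202 without p53si-1 replicate 1 and 0.246 without p53si-1 replicate 2. It also did not pass with the replicate number as a block (adjusted p = 0.0579 from limma). Its log2 difference stayed between 0.87 and 1.03 in these fits, where a group left with 1 array was assumed to vary like the other group.

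KRT5 (transcript cluster 7963427), the type II keratin of basal cells, was at 10.36 and 10.12 with NS and at 9.85 and 9.80 with p53si-1. Both p53si-1 arrays lay below both NS arrays, and the NS arrays were farther apart than the p53si-1 arrays. The log2 difference was -0.41 (1.33-fold) with an interval of -0.67 to -0.15, and it did not pass over all genes (adjusted p = 0.216 from limma). KRT14, the type I chain that usually pairs with KRT5, was at 7.278 and 7.003 with NS and at 7.21 and 7.15 with p53si-1. The p53si-1 arrays lay inside the range of the NS arrays, and the interval was -0.23 to 0.32. KRT15 and KRT14 may both pair with KRT5, and their differences of 0.95 and 0.04 stand beside the -0.41 of KRT5. The nearest measured keratins on either side of KRT15 on chromosome 17, KRT13 and KRT19, were at differences of -0.03 and 0.07. Those beside KRT5 on chromosome 12, KRT75 and KRT71, were at -0.17 and -0.21. Of these neighbours KRT13 and KRT75 were dim, with mean NS signals of 5.06 and 5.22.

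KRT16 and KRT80 showed little spread on any array. KRT16, a type I keratin of activated keratinocytes, was at 7.22 and 7.17 with NS and at 7.16 and 7.14 with p53si-1. Its p53si-1 arrays lay just below its NS arrays, by a mean of 0.04 on the log2 scale (adjusted p = 0.884 from limma). KRT80, a type II keratin of differentiating epithelia, was at 8.05 and 8.01 with NS and at 7.99 and 8.01 with p53si-1, with an interval of -0.22 to 0.17. KRT14 and KRT16 are close relatives of each other and of KRT17, and how far their probes tell them apart is not given in the labels or methods. A cluster annotated to KRT16 and 3 of its pseudogenes together had means of 6.84 and 6.63.

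KRT10 (transcript cluster 8015104), a type I keratin of differentiated suprabasal keratinocytes, had the largest difference of the keratins and also the widest spread. It was at 6.39 and 5.98 with NS and at 7.62 and 6.86 with p53si-1. Both p53si-1 arrays lay above both NS arrays, and the p53si-1 arrays differed from each other by 0.76. The means were 6.19 ± 0.29 and 7.24 ± 0.54 (SD, n = 2 arrays each), which is 2.08-fold with a 95% interval of 1.35-fold to 3.20-fold. KRT10 did not pass over all genes (adjusted p = 0.198 from limma). Without p53si-1 replicate 1 its log2 difference was 0.67 and without p53si-1 replicate 2 it was 1.44, against 1.05 with all arrays. KRT10 and KRT15 are both shown in the study's heat map of these arrays. Its legend describes it as holding the top genes over 1.5-fold, so their place there comes from the same data.

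The partners and neighbouring keratins of KRT10 had differences near 0, but all of them were dim. KRT1, the type II chain it pairs with, was at 4.39 and 4.36 with NS and at 4.36 and 4.42 with p53si-1. KRT2, the late epidermal partner, was at 4.38 and 4.25 with NS and at 4.09 and 4.47 with p53si-1. Both type II partners were dim and their groups overlapped. KRT28 and KRT12, the nearest measured keratins on either side of KRT10, were at differences of -0.06 and -0.04. Their mean NS signals were 3.14 and 4.12, so a change at these genes could go undetected. KRT10-AS1, a gene at the KRT10 locus with a cluster of its own, was at 7.19 and 6.90 with NS and at 7.15 and 7.20 with p53si-1. Its difference was 0.13 and its groups overlapped.

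The dim hair keratins KRT35 and KRT85 had the next smallest unadjusted p. KRT35, a type I hair keratin, was at 4.09 and 4.26 with NS and at 4.63 and 4.42 with p53si-1. The p53si-1 arrays lay above the NS arrays, with a log2 difference of 0.35 (adjusted p = 0.305 from limma). KRT85, a type II hair keratin, was at 4.96 and 4.90 with NS and at 4.78 and 4.59 with p53si-1. The p53si-1 arrays lay below the NS arrays, with a log2 difference of -0.24 (adjusted p = 0.398 from limma). Both signals are under 5.59, where most markers of other cell types lay, and whether they exceed background was not tested.

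**Figure D2:**
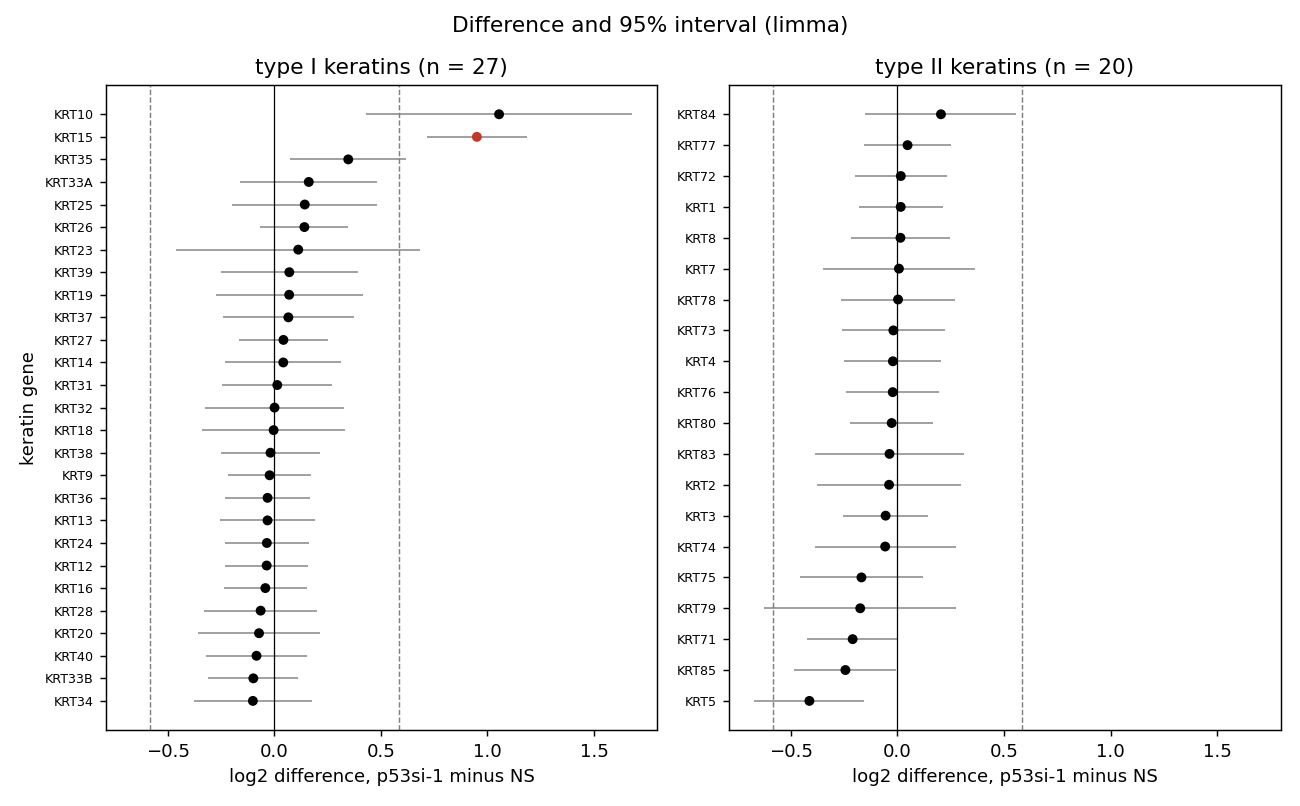
Log2 difference (p53si-1 minus NS) of each type I and type II keratin with its 95% interval from limma, sorted by size, and dashed lines at 1.5-fold. KRT15 (red) passes an adjusted p of 0.05, KRT10 lies farther out with a wider interval, and KRT5 is the lowest of the type II keratins.

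Counted over the family, 1 of 48 keratins passed an adjusted p of 0.05 from limma, against 0.109% of all genes. By over 1.5-fold 2 keratins were higher, against 0.271% of all genes, and 0 were lower, against 0.652%. At an unadjusted p under 0.05 there were 5 keratins (10.4%), a share near the 12.3% of all genes. Both p53si-1 arrays lay above both NS arrays in 4 keratins (8.33%, against 19.9% of all genes) and below them in 7 (14.6%, against 22.6%). The 4 were KRT10, KRT15, KRT26 and KRT35, and the 7 were KRT3, KRT5, KRT12, KRT16, KRT33B, KRT71 and KRT85. The difference of these shares from those of all genes was not tested. With 2 arrays against 2, an exact permutation test cannot give a two-sided p below 0.333 for a single gene.

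The median difference of the 48 keratins was -0.02, against -0.01 over all genes, and was between -0.05 and 0.04 when 1 array was left out, with 22 keratins at a higher and 26 at a lower mean. Type I keratins had 14 higher and 13 lower means and a median of 0.00, and type II keratins had 7 higher and 13 lower means and a median of -0.02. The 8 measured type I keratins of stratified epithelium hold both differences of over 1.5-fold, and their median was -0.03. The 10 measured type II keratins of stratified epithelium ran from -0.41 for KRT5 to 0.05 for KRT77, with 7 lower means. The 11 type I hair keratins ran from -0.10 for KRT34 to 0.35 for KRT35. The 5 type II keratins of the hair follicle root sheath and companion layer ran from -0.21 for KRT71 to 0.02 for KRT72, and the 3 type II hair keratins from -0.24 for KRT85 to 0.20 for KRT84. The 4 type I keratins of the inner root sheath ran from -0.06 for KRT28 to 0.14 for KRT25. The 32 keratins not given above on every array lay between -0.21 and 0.20, and none of them had an unadjusted p under 0.05.

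**Figure D3:**
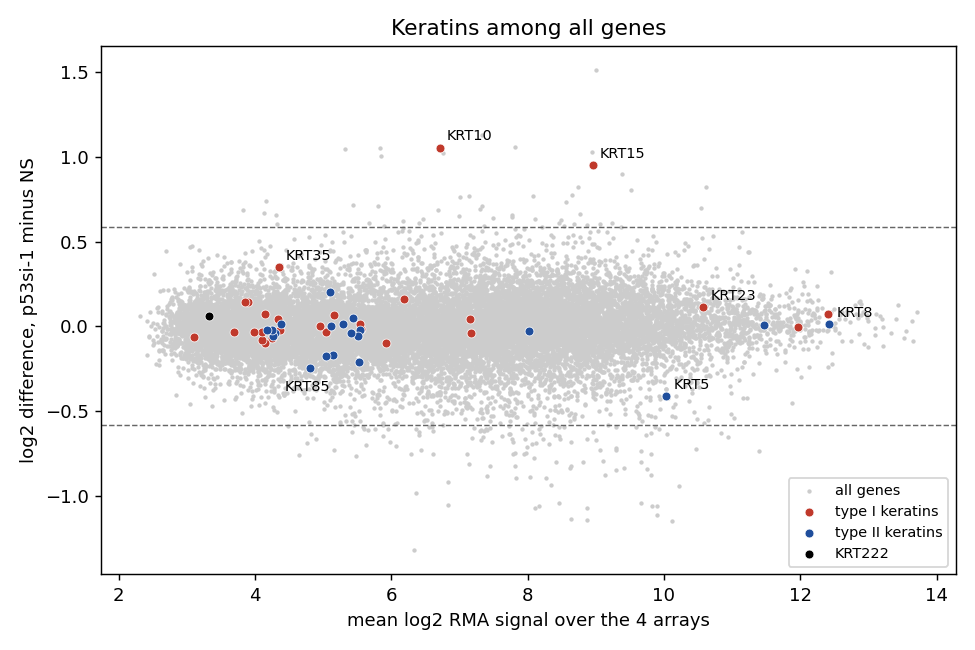
Log2 difference (p53si-1 minus NS) of all 18417 genes (grey) against their mean log2 RMA signal, with type I keratins in red, type II in blue and KRT222 in black, and dashed lines at 1.5-fold. KRT10 and KRT15 lie above the upper line and no keratin lies below the lower one.

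Most keratins with the brightest NS signal were higher on replicate 1. Of the 10 brightest, 8 were higher on replicate 1 than on replicate 2 in both groups and 0 were lower in both. These 10 include KRT80, KRT16 and KRT14, which lay under the bright limit. Of all 48 keratins 22 (45.8%) were higher on replicate 1 in both groups and 4 lower. Of all 18417 genes 5891 (32.0%) were higher on replicate 1 in both groups and 4804 lower. These 10 were looked at for this after their values had been seen. KRT23 was higher on replicate 1 by 0.54 with NS and by 0.57 with p53si-1, and KRT19 by 0.30 and 0.29. KRT10 was higher on replicate 1 by 0.41 and 0.76. For KRT23 and KRT19 these gaps exceed the difference between the groups, which was 0.11 and 0.07. A legend of the study calls both experiments independent, but no source says whether arrays of the same number came from the same experiment. Between arrays of the same number, p53si-1 minus NS was 0.81 and 1.09 for KRT15, 1.23 and 0.88 for KRT10, and -0.51 and -0.32 for KRT5.

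**Figure D4:**
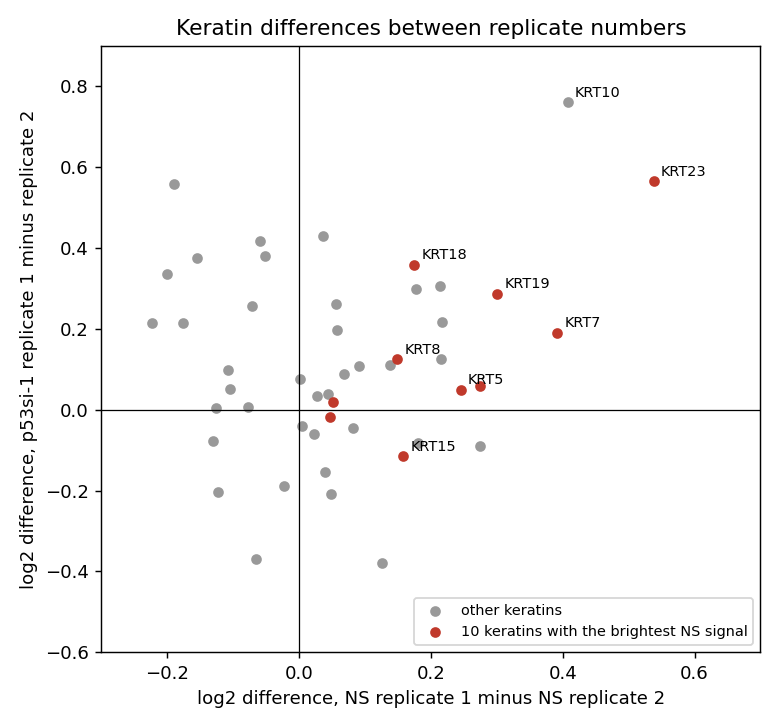
Log2 difference of replicate 1 minus replicate 2 among the NS arrays (horizontal) and among the p53si-1 arrays (vertical) for each of the 48 keratins, with the 10 brightest in red. Of these 10, 8 lie in the upper right, where replicate 1 is higher in both groups, with KRT23 at 0.54 and 0.57.

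Genes that work with keratins were read from 4 lists. Of 19 measured anchors of keratin filaments in desmosomes and hemidesmosomes, 0 passed an adjusted p of 0.05 from limma, 8 had a higher and 11 a lower mean, and 3 had an unadjusted p under 0.05, against 12.3% of all genes. PKP2, a plakophilin that links keratins to desmosomes, was at 7.63 and 7.71 with NS and at 7.21 and 7.23 with p53si-1 (log2 difference -0.45, adjusted p = 0.122 from limma). The tetraspanin CD151 of hemidesmosomes was at a difference of -0.39, and the desmosomal cadherins DSC3 and DSC2 were at 0.36 and 0.27. The plakin DSP, which binds keratins at desmosomes, was at 0.09 and plakoglobin, JUP, at -0.01.

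Of 15 measured intermediate filament genes that are no keratins, 0 passed an adjusted p of 0.05 from limma and 2 had an unadjusted p under 0.05, a share near the 12.3% of all genes. NEFH, SYNM, GFAP and NES, which encode filament proteins of neurons, muscle, glia and progenitor cells, were at differences of 0.34, 0.24, -0.22 and -0.20. Vimentin (VIM), the filament of mesenchymal cells, was at mean signals of 7.51 with NS and 7.38 with p53si-1. Of 10 measured genes in a list of bundling and filament-associated proteins, 0 passed from limma and 3 had an unadjusted p under 0.05, against 12.3% of all genes. These were FLG2, TRADD and KRTCAP2, the last of which encodes a subunit of the oligosaccharyltransferase and is no keratin-binding protein despite its name. FLG2 and FLG, the filaggrins that pack keratins in cornified cells, were dim and at differences of 0.28 and 0.19, while TRADD, an adaptor of death receptors that can bind KRT18, was at -0.22 and KRTCAP2 at -0.20.

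Of 25 measured regulators of keratin genes, 0 passed an adjusted p of 0.05 from limma, 18 had a higher and 7 a lower mean, and 5 had an unadjusted p under 0.05. Of all genes 8723 had a higher and 9693 a lower mean, and 12.3% had an unadjusted p under 0.05. The median difference of the regulators was 0.08, against -0.01 over all genes. POU2F3, a POU-domain factor of keratinocytes, was the nearest to passing (log2 difference 0.81, adjusted p = 0.0501 from limma). Its signals were 9.07 and 9.17 with NS and 9.91 and 9.93 with p53si-1. The study names it for these arrays and also reports, by separate real-time RT-PCR, a rise over time after the knockdown. GRHL1, a grainyhead-like factor of epithelia, was at 8.72 and 8.44 with NS and at 8.25 and 7.92 with p53si-1 (log2 difference -0.50). KLF5, a Krüppel-like factor of proliferating basal epithelium, was at a difference of 0.38, and ELF5, a factor of luminal progenitors, at -0.31.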

How the data were processed

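Each of 4 RNA samples was read on 1 Human Gene ST array (version 1.0, Affymetrix), and groups and replicate numbers were taken from the sample titles. The authors deposited log2 signals by transcript cluster, made with RMA in Expression Console after scanning with GCOS software, the tools listed in the submitters' notes on processing. The log2 scale was judged from their range. The settings of RMA and the annotation build are not stated in the labels or the methods. RMA pulls small differences of dim probes toward 0, so a fold change can understate the change in RNA. No normalization or filter was added. Clusters naming exactly 1 symbol (19460 of 33297) were kept, and the brightest cluster stood for a gene. RefSeq chromosomes of the clusters nearest in number (5 on each side) were compared with the gene's own.

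A linear model per gene was fitted in R 4.3.3 with the package limma 3.58.1 (lmFit, then eBayes) on all 18417 genes. The test was two-sided, with 2 residual plus 4.2 prior degrees of freedom. Benjamini-Hochberg adjustment ran over all of these genes. A run on simulated data checked only that the mean estimated folds matched those put in. Its noise was independent between arrays, so it does not bear on any link between same-numbered arrays. No source states that replicates were separate cultures beyond a legend that calls the experiments independent. The p-values therefore rest on spread between arrays, with each gene's own variance drawn by eBayes toward a value shared by all genes. For KRT16 the group SDs were 0.04 with NS and 0.01 with p53si-1, but the standard error was 0.08. The keratins, lists and limits were chosen with earlier results of these data known. Values on every array are given for keratins that differed by over 0.32 on the log2 scale or had an unadjusted p under 0.05, for the 10 brightest and for their filament partners. From each list the 4 largest differences are named, with a few genes chosen after their values were seen (DSP, JUP and VIM).

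The alternatives averaged the clusters of a gene, renormalized or centred the arrays, left out dim genes, changed the prior variance or the fold criterion, used the replicate number as a block, and left out each array. In the fit without dim genes the limit was not 5.59 on the NS arrays. It was 6.59, the median of the gene means over all arrays. KRT33A, KRT33B and KRT71, which lay between the bright and dim limits, were therefore left out there too.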

Additional observations from a re-analysis of the deposited data

How the results depend on the processing

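With 2 arrays per group, single calls move easily. The 2 keratins higher by over 1.5-fold stayed 2 under every alternative tried except a lower criterion of 0.32 on the log2 scale, which gave 3 higher and 1 lower. Several alternatives could not move these 2. The mean over clusters, the trended prior and the replicate block left their log2 differences at 1.055 for KRT10 and 0.951 for KRT15. Leaving out dim genes changes no difference and can only drop a gene. The differences did move with renormalization and without 1 array, where the lowest were 0.674 for KRT10 and 0.871 for KRT15. The keratins at an adjusted p under 0.05 numbered 1 under the other normalizations, the mean over clusters, the fit without dim genes and the trended prior, and 0 with the replicate block and without any 1 array. No block was used in the reported test because no source says whether same-numbered arrays share an experiment. The deviations of same-numbered arrays had a correlation of 0.24 across genes. The replicate block gave KRT15 a log2 difference of 0.951 and an adjusted p of 0.0579 from limma, and KRT10 an adjusted p of 0.0588. Over all genes the calls, 20 as reported, numbered 12 with the block, 220 of 9209 without dim genes, 149 with the trended prior, 62 with median centring, and 0 or 1 without 1 array.

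Keratins with both p53si-1 arrays above both NS arrays numbered 2 without dim genes, where 11 keratins were left, and 9 to 21 without 1 array. The 2 without dim genes were KRT15 and KRT10, and KRT10 was kept in that fit only through its p53si-1 signal. Keratins with both p53si-1 arrays below both NS arrays numbered 2 without dim genes and 9 to 19 without 1 array. Fewer arrays have to be separated there. Of the 16 keratins given on every array, 7 kept their sign in all 9 alternatives, and the 9 others had differences near 0. The trended prior and the replicate block leave every difference as it is, so they could not change a sign. KRT18 was at 0.001 with the mean over clusters and 0.009 with median centring, and quantile normalization put KRT7 at -0.060 and KRT8 at -0.003. Without 1 array the log2 differences ran from -0.014 to 0.045 for KRT1, from -0.095 to 0.180 for KRT14, from -0.182 to 0.176 for KRT18, from -0.080 to 0.220 for KRT19, from -0.229 to 0.151 for KRT2, from -0.180 to 0.037 for KRT20, from -0.170 to 0.395 for KRT23, from -0.189 to 0.203 for KRT7 and from -0.060 to 0.088 for KRT8. The cause of these changes was not tested. The 34 dim keratins have mean NS signals under 5.59, where most markers of other cell types lay, so a difference there could go undetected.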
